A study of Mus musculus with 20 samples.

Results

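A gene can have several 3′UTRs (the untranslated stretch of an mRNA after its stop codon) when its transcripts end at different places. The regions described here are the 3′UTRs of genes for which more than 1 of them was measured in immunoprecipitates of AGO2, the protein that holds a miRNA and the mRNA it pairs with. A 3′UTR, counted as 1 row of the deposited tables, was taken when it had 10 or more counts in each of the 8 immunoprecipitates (RIP libraries) and its gene had another such row of a different length. This gave 976 rows of 463 genes, out of 8203 rows that passed the limit on counts and 38158 rows in the tables. They are 11.9% of the rows past the limit, and their genes are 6.05% of the 7649 genes with such a row. Of the 463 genes, 422 had 2 rows, 35 had 3, 4 had 4, and the last 2 genes had 5 and 6. The rows were thus selected on their counts in all 4 groups, so that a row silent in any library is absent whatever it did elsewhere. Just inside the limit, with a lowest count of 10, were 34 genes, among them Prodh with 112 counts over the 8 libraries in its weakest row and Zfp326 with 132. Just outside it, with a lowest count of 9, were 29 genes, among them Epb4.1l3 with 110 counts and Ercc1 with 115.

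All mice were adult male C57BL/6 mice, and each RIP library pooled the lysate of 2 hippocampi. In 3 groups of 2 libraries, AAV5 vectors drove a GFP-AGO2 fusion protein from a synapsin promoter, which is active in neurons, together with a sponge, an RNA with repeated binding sites that titrates a miRNA. The sponges were for miR-124 (miR124sp) and miR-125 (miR125sp), both abundant in brain, and for miR-292 (miR292sp), which served as the control sponge. The last group of 2 libraries came from sham-injected mice without the fusion protein, taken through the same anti-GFP precipitation, and gives the background. Separately, hippocampal mRNA was sequenced in 12 single mice, 3 with GFP-miR124sp against 3 with GFP alone and 3 with GFP-miR125sp against 3 others with GFP alone, under the same promoter. With 2 libraries a group, p-values rest on a spread shared by the 4 groups.

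AGO2 finds its targets through the seed of the miRNA, its bases 2 to 8, and most known sites lie in 3′UTRs. Genes change the sites they carry by ending transcripts early or late, either within 1 last exon (tandem poly(A) sites) or by using a different last exon, and neurons are known for long 3′UTRs. Homer1 and Ntrk2 are textbook cases in which the early end also gives a shorter protein.

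The counts summed to 2944113 to 3662634 with miR124sp, 3354678 and 3548420 with miR125sp, 4988911 and 5072501 with miR292sp, and 2417942 and 2931054 in sham. The rows of these 463 genes took 15.2 and 15.6% of the counts with miR124sp, 14.2 and 14.6% with miR125sp, 11.6 and 12.1% with miR292sp, and 17.8 and 18.1% in sham. A single gene, Slc1a2, the main glutamate transporter of astrocytes, made most of that difference: without it the shares were 11.0 to 11.5%, 11.0 and 11.1%, 10.2 and 10.6%, and 11.8 and 12.1%. Markers of astrocytes (7 of 7 measured, Slc1a2 among them) held 4.40 to 4.43% of all counts with miR124sp, 3.50 to 3.74% with miR125sp, 1.53 to 1.60% with miR292sp and up to 6.34% in sham. Markers of neurons (6 of 8 measured, Syt1 at 0) held 0.504 to 0.506%, 0.514 to 0.582%, 0.579 to 0.611% and 0.452 to 0.458%. Oligodendrocyte markers (6 of 7 measured, Mbp among them) held 0.0723 to 0.0926% over the 8 libraries. Mbp was a larger part of that sum with miR292sp than in sham, so that the sum does not show what the others did. Among microglial markers 1 of 6 was measured and Aif1 was at 0, and among endothelial and mural markers 1 of 5 was measured, with Pdgfrb and Pecam1 at 0. These are shares of the RNA in anti-GFP precipitates, and neither the number of cells of a type nor their RNA content can be read from them. Bases shared by several rows gave almost no counts, as described next, so that a marker at 0 need not be absent.

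What these rows are follows from how reads were counted. Of the 36975 rows with a position, 11143 lay wholly within other rows, and 11142 of them had no count at all, so that bases shared by 2 rows gave almost no counts. Tandem 3′UTRs, in which the short form is contained in the long form, therefore cannot both be measured, and the pairs described here are mostly separate stretches. For rows annotated in several blocks, the length matched that of the block with the lowest coordinates in 5401 of 5423 rows, and that block gives the position. Whether reads in the other blocks were counted is not known, which leaves the length, position, coding content and sequence matches of 273 of the 976 rows uncertain. Of the 963 rows of the 463 genes that could be placed on the genome (mouse mm9, GENCODE M1), 571 held no base that codes for protein in another transcript, 110 held some, and 282 were coding over at least 50% of the bases open to counting. Coding bases were present in 40.7% of these rows, against 10.2% of the 7133 other placed rows past the limit. Transcripts annotated as targets of nonsense-mediated decay, the pathway that removes mRNAs with an early stop codon, gave 188 of the 976 rows (19.3%), against 2.28% of the other rows. The median length was 977.5 bases (2 to 10584), against 1357 bases in the other rows.

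A poly(A) signal (AATAAA or ATTAAA, on the strand of the transcript, in the last 50 bases) stood in 72.3% of the rows without coding bases, 57.3% of those with some and 17.7% of the mostly coding rows. It stood in 78.2% of the other rows past the limit. The seed match of miR-124 (GTGCCTT) stood in 12.3% of the rows of the 463 genes against 16.6% of the other rows, and that of miR-125 (CTCAGGG) in 11.5% against 16.3%. The 2 mature forms of miR-125 share their seed, given in capitals in the RefSeq sequences (GRCm38.p6).
mmu-miR-125b-5p: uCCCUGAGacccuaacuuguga
mmu-miR-125a-5p: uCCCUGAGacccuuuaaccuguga

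Genes in which the long row carries a match that the short row lacks bear most directly on a row-specific sponge response. The matches of the 6 such genes with the most counts are shown in 30 bases of the mm9 transcript strand, with the heptamer in capitals. The long row of Lrrc58 holds 3 matches, of which the first 2 are shown.
Lrrc58, miR-124, chr16:37882108-37882137: cagtgatatgttataGTGCCTTaatcctag
Lrrc58, miR-124, chr16:37887086-37887115: acattgagtttgtaaGTGCCTTtacctaaa
Kcnc1, miR-124, chr7:53684066-53684095: tggtctttaacatgcGTGCCTTcaggctgt
Negr1, miR-124, chr3:156976459-156976488: aatctcagcatgggtGTGCCTTcataaaat
Slc1a2, miR-125, chr2:102626458-102626487: gaagtggtgattttgCTCAGGGaaatgttc
Slc1a2, miR-125, chr2:102630085-102630114: agaagcacacgaaggCTCAGGGccagcaac
Pclo, miR-125, chr5:14858887-14858916: agatgtgtcagCTCAGGGcgaggaagcgga
Epha7, miR-125, chr4:28893917-28893946: ttttgataattagtgCTCAGGGgagggggg

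The rows of these genes were less enriched with AGO2 than the other rows, and the enrichment differed by what the rows contain. Enrichment is the count with miR292sp over the mean count in sham, after each library was scaled to Gapdh and, by rank of the raw ratio to sham, the 50 genes above and below it. Its median was 1.70 over the 976 rows (quartiles 1.07 and 3.36, range 0.157 to 26.4) and 2.47 over the 7227 other rows (quartiles 1.48 and 4.36). Above 4-fold, the study's limit for an AGO2 target, were 181 of the 976 rows (18.5%), against 27.2% of all 8203 rows. With p-values from edgeR (quasi-likelihood) adjusted by Benjamini and Hochberg over all 8203 rows, 427 of the 976 rows were higher with miR292sp than in sham (background 59.4% of all rows) and 9 were lower (background 0.585%). With TMM scaling, in which most rows are taken as unchanged, the split was 136 higher and 278 lower. Over all 8203 rows it was 1768 higher and 1563 lower. The median over all rows moved to -0.11 on the log2 scale, against 1.26 with the Gapdh-centred scaling. The 976 rows had a median log2 fold change of 0.77 with the Gapdh-centred scaling and -0.58 with TMM, and the other rows 1.31 and -0.06.

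Among rows without coding bases, the median enrichment was 2.22 in the 571 rows of these genes and 2.55 in the 6406 other rows. Among mostly coding rows, it was 1.37 in 282 rows and 1.46 in 324. Above 4-fold were 25.4% of the 571 rows without coding bases and 6.38% of the 282 mostly coding rows. Both miR292sp libraries gave that order, with medians of 2.33 and 1.37 in replicate 5 and 2.14 and 1.35 in replicate 6. The mostly coding rows are also shorter, with a median of 175 bases against 1301 bases for the rows without coding bases.

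**Figure D1:**
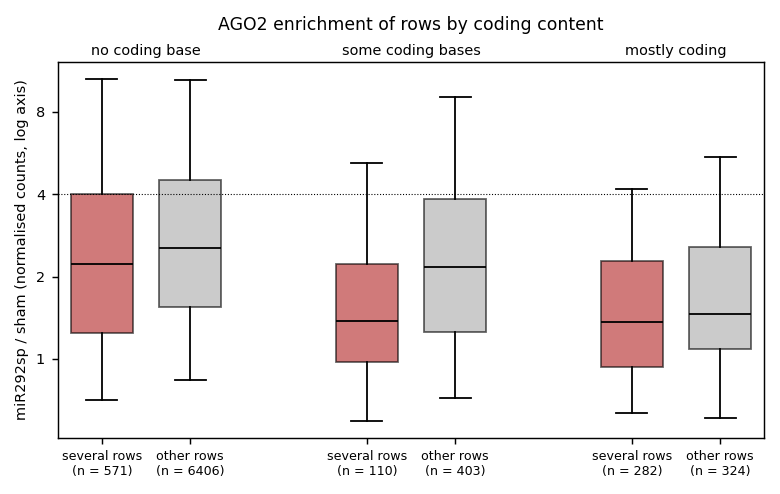
AGO2 enrichment (miR292sp over sham, normalised counts, log axis) of rows without, with some and with mostly coding bases, for genes with several measured rows (red) and the other rows (grey); boxes give quartiles and median, whiskers the 5th and 95th percentiles, and the dotted line 4-fold. The median is 1.37 in the 282 mostly coding rows and 2.22 in the 571 rows without coding bases.

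To compare rows of the same gene, the longest and the shortest row of each gene were fitted together with a term for each library, so that library size, scaling and the level of the gene in a library drop out. What remains is the change in the ratio of long-row to short-row counts between groups, on the log2 scale (long minus short difference). The p-values were adjusted over all 463 genes, which are every gene that has 2 such rows. Between miR292sp and sham, the difference was called (edgeR, adjusted p below 0.05) in 108 of 463 genes, 23.3%. The long row was more enriched than the short row in 85 genes and less in 23, which are 18.4% and 4.97%. The median difference was 0.39, positive in 305 genes and negative in 158. In counts, the median ratio of long to short row was 4.00 and 3.61 in the 2 libraries with miR292sp, against 2.60 and 2.52 in sham. Without miR292sp replicate 5 the calls fell to 35 (26 and 9), and without miR292sp replicate 6 to 62 (48 and 14). All 35 calls without replicate 5 and 60 of the 62 without replicate 6 were among the 108. Without sham replicate 7, 73 of 83 calls were among them, and without sham replicate 8, 64 of 74. With the filterByExpr limit on counts, which tests 1308 genes, 39 of 74 were.

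**Figure D2:**
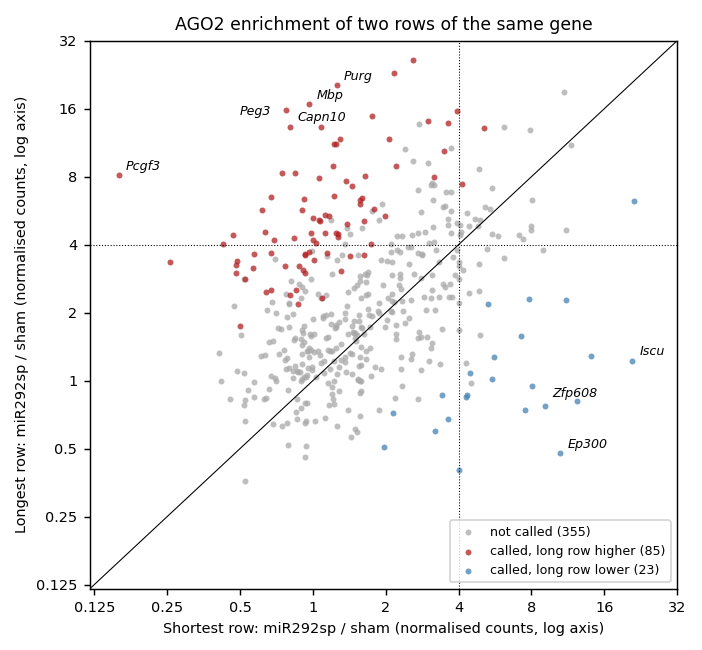
AGO2 enrichment of the longest row of each of 463 genes against that of its shortest row (miR292sp over sham, normalised counts, log axes); red and blue points are the 85 and 23 genes called in the within-gene test, the line marks equal enrichment and the dotted lines 4-fold. Named genes lie far from the line, such as Pcgf3, with a short row at 0.157 and a long row at 8.12.

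The side of the gene on which the long row lay went with the sign. Where the long row was the distal row (the later of the pair along the gene), in 330 genes, the median difference was 0.58, with 75 calls for the long row and 6 against it. Where the long row was the proximal row (123 genes), the median was -0.21, with 9 calls for it and 16 against. Put by position, the distal row was the more enriched in 91 of the 106 called genes with positions. In the 139 genes with coding bases in neither row, the difference between distal and proximal row had a median of 0.55, and 39 of 46 calls went to the distal row. With coding bases in the short row but not in the long row (208 genes), the median long minus short difference was 0.70, with 42 calls for the long row and 3 against it. With coding bases in the long row but not in the short row (56 genes), it was -0.32, with 2 calls for the long row and 6 against. Genes with a poly(A) signal in the long row but not in the short row (224) had a median of 0.61 and 55 of 57 calls for the long row. The 58 genes with the signal in the short row but not in the long row had a median of -0.12 and 6 of 12 calls for the long row. Position, coding content, length and poly(A) signal overlap in these pairs, and their separate parts were not tested.

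**Figure D3:**
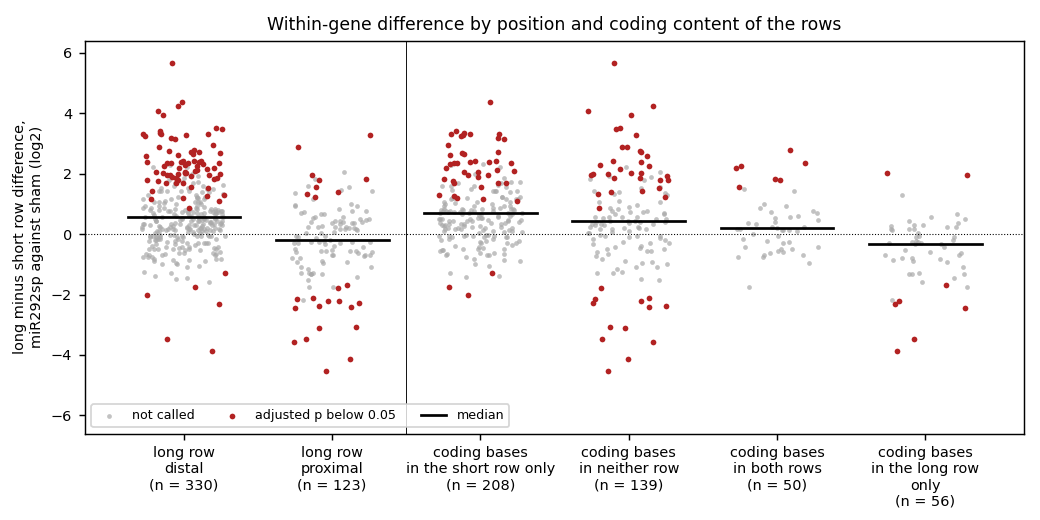
Long minus short row difference between miR292sp and sham (log2) for each gene, by the position of the long row (left of the vertical line) and by coding content (right of it); red points were called, and bars give the median of each class. The median is 0.58 where the long row is distal and -0.21 where it is proximal.

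At the 4-fold limit, the rows of 97 of the 463 genes (21%) fell on opposite sides in both miR292sp libraries. Every row of 14 genes (3.02%) was above it and every row of 288 genes (62.2%) below it. The higher row was the longer one in 75 of the 97 genes, and it held coding bases in 8, against 56 for the lower row. The rows of 202 genes (43.6%) spanned more than 2-fold in enrichment, and those of 85 genes (18.4%) more than 4-fold.

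The genes with the widest differences are given first, beginning with those whose products act on chromatin or bind DNA. Pcgf3, a subunit of Polycomb repressive complexes, had 3441 and 2719 counts with miR292sp, against 709 and 416 in sham, in its distal row of 6572 bases (chr5:108929424-108935995). Its row of 1222 bases upstream (chr5:108917022-108918243) had 11 and 21 counts with miR292sp, against 162 and 131 in sham. The ratio of long to short row was thus 313 and 129 with miR292sp, against 4.38 and 3.18 in sham, and the difference was 5.68 ± 0.66 (SE; edgeR, adjusted p = 0.000685). No other of the 463 genes had a larger difference, and the short row was the least enriched of the 976 rows, with counts close to the limit of 10.

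Ep300, a histone acetyltransferase and coactivator, differed the other way round. Its row of 1095 bases (chr15:81481413-81482507), at the distal end, had 414 and 616 counts with miR292sp, against 52 and 84 in sham. Its row of 1267 bases (chr15:81417508-81418774), far upstream, had 33 and 22 counts with miR292sp, against 84 and 82 in sham. The difference was -4.52 ± 0.74 (SE; edgeR, adjusted p = 0.00271), and the ratios of the groups did not overlap, as in 61.3% of all 463 genes. Zfp608, a zinc finger protein, also had the higher enrichment in its shorter, distal row of 1030 bases, with 137 and 105 counts with miR292sp, against 23 and 16 in sham. Its row of 1558 bases had 72 and 46 counts with miR292sp, against 129 and 95 in sham. Its difference was -3.57 ± 0.73 (edgeR, adjusted p = 0.00685), and the adjusted p was 0.0537 without miR292sp replicate 5.

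Peg3, an imprinted gene for a zinc finger protein expressed from the paternal copy, had 15251 and 15611 counts with miR292sp, against 1368 and 1425 in sham, in its 3′UTR of 3614 bases (chr7:6656603-6660216). A row of 2337 bases that lies in the coding sequence of the main transcript (chr7:6662106-6664442) had 873 and 773 counts with miR292sp, against 1708 and 1376 in sham. These rows thus stood at 15.8-fold and 0.776-fold, a difference of 4.37 ± 0.38 (SE; edgeR, adjusted p = 0.000239), which was the smallest adjusted p of the 463 genes. Purg, a purine-rich element binding protein, had 765 and 738 counts with miR292sp, against 77 and 34 in sham, in its distal row of 807 bases. Its row of 143 bases had 232 and 290 counts with miR292sp, against 349 and 257 in sham, and the difference was 4.06 ± 0.43 (edgeR, adjusted p = 0.000672).

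Of the same 10 genes, the next encode other proteins. Iscu, the scaffold on which iron-sulfur clusters are built in mitochondria, had 975 and 1052 counts with miR292sp, against 53 and 83 in sham, in its distal row of 370 bases. The neighbouring row of 740 bases had 60 and 60 counts with miR292sp, against 68 and 72 in sham, and the difference was -4.14 ± 0.52 (edgeR, adjusted p = 0.00085). The rows lie close together (chr5:114227068-114227807 and chr5:114227928-114228297). In Capn10, a calpain protease gene, the distal row of 403 bases stood at 13.3-fold and the row of 365 bases at 0.806-fold, with a difference of 3.95 ± 0.55 (edgeR, adjusted p = 0.00127).

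Mbp, the gene of myelin basic protein and a defining gene of oligodendrocytes, had 2968 and 2701 counts with miR292sp, against 277 and 215 in sham, in its row of 3935 bases (chr18:82724161-82728095). Its row of 1245 bases upstream had 11 and 53 counts with miR292sp, against 69 and 29 in sham, so that the groups overlapped in that row. The long row was at 16.8-fold and the short row at 0.967-fold, and the difference was 4.24 ± 0.65 (SE; edgeR, adjusted p = 0.00246). The summed oligodendrocyte markers held 0.0860 to 0.0874% of the counts with miR292sp and 0.0723 to 0.0806% in sham. Mbp is itself one of these markers, and its long row is a larger part of that sum with miR292sp than in sham. The sum therefore does not show what the other markers did. Mobp, the other oligodendrocyte marker with several rows, had 252 and 254 counts with miR292sp, against 477 and 199 in sham, in its long row. Which form of the Mbp protein the transcripts of these rows encode was not examined. The part of oligodendrocyte RNA in the Mbp result was not tested. The genes 2810453I06Rik and A730017C20Rik, for which no role is given here, had differences of -3.88 ± 0.70 and 3.61 ± 0.60 (edgeR, adjusted p = 0.00354 and 0.00285).

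**Figure D4:**
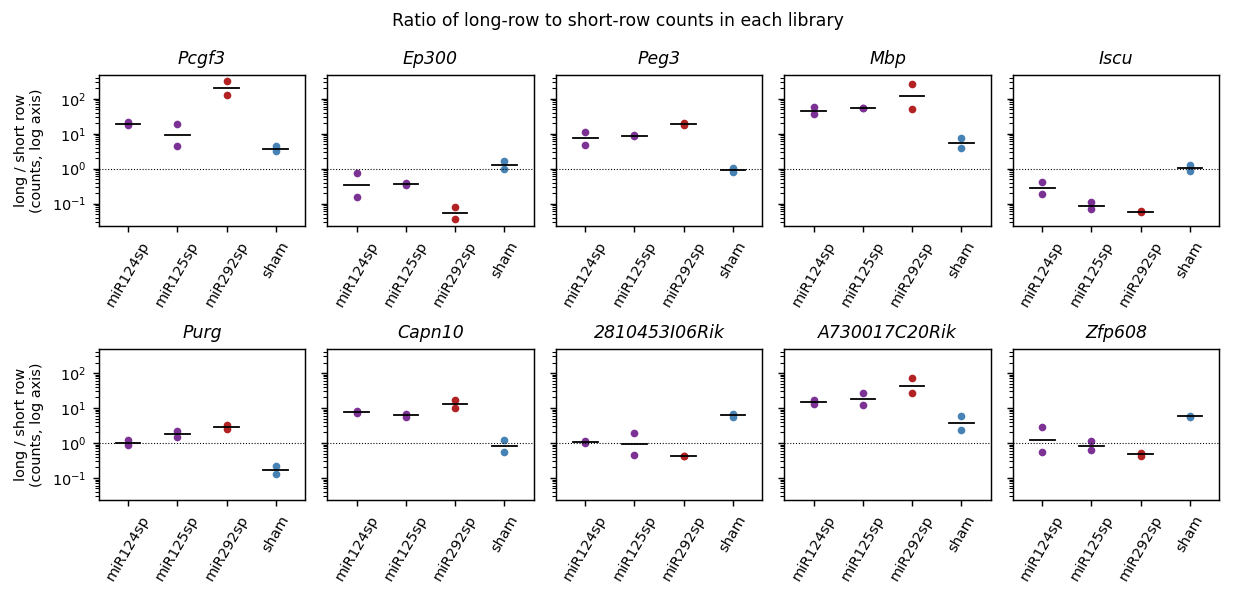
Ratio of long-row to short-row counts (log axis) in each of the 8 libraries for the 10 called genes with the widest difference between miR292sp and sham; points are libraries, bars their geometric mean, and the dotted line marks equal counts. The rule that chose these genes requires both miR292sp libraries to lie on 1 side of both sham libraries. The groups lie apart in 61.3% of all 463 genes.

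Of 40 genes listed as textbook cases of alternative 3′ ends, 30 had a row past the limit and 6 had several: Actb, Dicer1, Homer1, Ntrk2, Sept8 and Srsf3. The difference was called in 4 of the 6, each with the long row more enriched, beside 18.4% of all 463 genes in that direction. Dicer1, the enzyme that cuts miRNA precursors, had 1883 and 1538 counts with miR292sp, against 397 and 373 in sham, in its 3′UTR of 3851 bases. A coding row of 360 bases had 90 and 57 counts with miR292sp, against 77 and 58 in sham, and the difference was 2.04 ± 0.40 (edgeR, adjusted p = 0.00537). Actb, the gene of β-actin, had 11589 and 11879 counts with miR292sp, against 5822 and 5273 in sham, in its 3′UTR of 683 bases, and 744 and 737, against 722 and 879, in a coding row of 388 bases. Its difference was 1.19 ± 0.27 (edgeR, adjusted p = 0.0101) and that of Sept8, a septin, 1.15 ± 0.33 (adjusted p = 0.031). Both lost the call when a miR292sp library was left out, with adjusted p of 0.0710 to 0.156. Srsf3, a splicing factor that regulates its own decay through a poison exon, was at 1.30-fold in its 3′UTR of 1955 bases and 1.07-fold in a row of 422 bases from a transcript annotated for decay, a difference of 0.32 ± 0.49 (adjusted p = 0.691).

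Ntrk2, the receptor for BDNF, makes a full-length receptor with a kinase domain and a truncated one that astrocytes express. Its last row (chr13:59229715-59235331, 5617 bases) had 2725 and 2200 counts with miR292sp, against 1147 and 657 in sham. The middle row (chr13:59033422-59038391, 4970 bases) had 2417 and 2561 counts with miR292sp, against 4658 and 3792 in sham, and the first row (1280 bases) 39 and 83, against 106 and 67. The last row stood at 4.06-fold, the middle row at 0.855-fold and the first at 1.03-fold. The difference between the last and the first row was 2.02 ± 0.46 (edgeR, adjusted p = 0.0108), and the adjusted p was 0.105 without miR292sp replicate 5 and 0.0520 without sham replicate 8.

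Homer1, a scaffold protein of the postsynaptic density whose short, activity-induced forms end in an intron, had 4 rows, and they did not follow their length. The first row (chr13:94126069-94130417, 4349 bases) stood at 10.1 and 7.10 in the miR292sp libraries and the last (chr13:94172185-94174917, 2733 bases) at 10.6 and 9.91. Between them, a row of 676 bases (chr13:94136408-94137083) stood at 0.178 and 0.552, with 11 and 36 counts with miR292sp, against 128 and 62 in sham. It was one of the 9 rows called lower than sham (log2 fold change -1.45, edgeR, adjusted p = 0.0364 over 8203 rows), and the adjusted p was 0.321 without miR292sp replicate 5 and 0.187 without sham replicate 7. A coding row of 217 bases was at 5.47 and 4.27. The longest and shortest rows did not differ past the threshold (0.78 ± 0.52, adjusted p = 0.346).

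**Figure D5:**
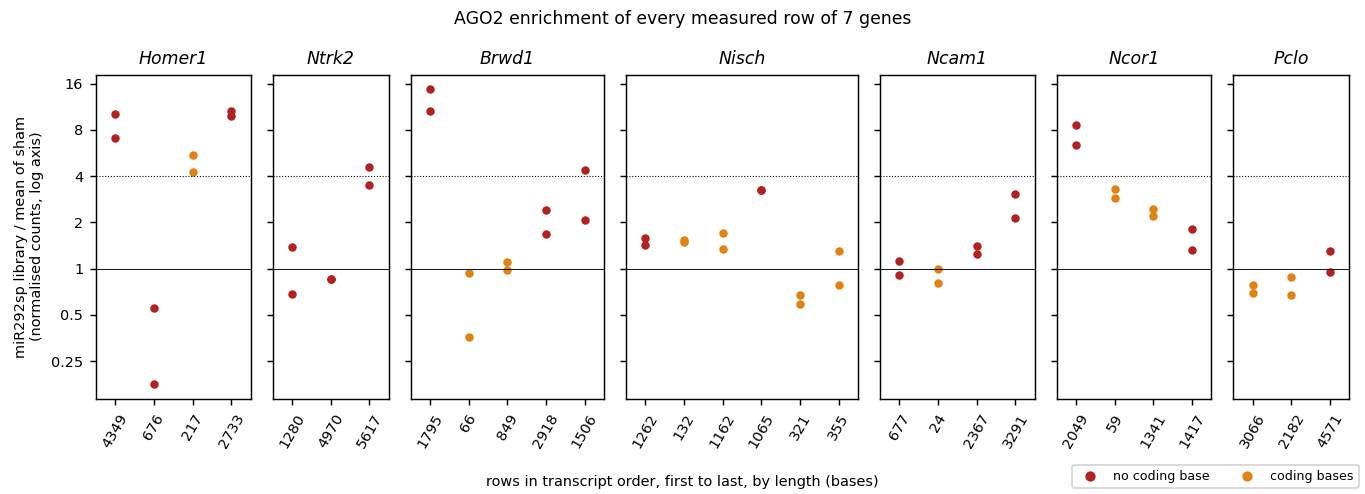
AGO2 enrichment of each measured row in both miR292sp libraries (each over the mean of sham, normalised counts, log axis), for 2 textbook genes (Homer1, Ntrk2), the genes with the most rows and Pclo; rows run from first to last along the gene and are labelled by length in bases. In Homer1 the row of 676 bases lies at 0.178 and 0.552 between rows at 10.1 and 7.10 and at 10.6 and 9.91.

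The genes with the most rows were Nisch with 6, Brwd1 with 5, and Homer1, Ncam1 and Ncor1 with 4 (Rufy2 also had 4 and is not described). In Nisch, the gene of nischarin, the rows ran from 0.634-fold to 3.25-fold, and the row of 1065 bases was the only one above 2-fold. In Brwd1, a bromodomain protein, a row of 1795 bases near the start of the gene stood at 14.7 and 10.6 in the miR292sp libraries, and the last rows, of 2918 and 1506 bases, at 2.05-fold and 3.22-fold. Its coding rows of 66 and 849 bases were at 0.645-fold and 1.04-fold. Ncam1, a neural cell adhesion molecule, was at 2.60-fold in its last row of 3291 bases and between 0.903-fold and 1.33-fold in the other 3. Ncor1, a nuclear receptor corepressor, was highest in its first row of 2049 bases, at 8.63 and 6.37, and its last row of 1417 bases was at 1.56-fold. The difference between longest and shortest row was not called in any of these 5 genes (edgeR, adjusted p from 0.065 to 0.845).

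Genes were also grouped by role through patterns in their symbols, and all differences in this paragraph are between miR292sp and sham. The patterns also take in genes of other roles, not all of which are pointed out. Nrxn3, for example, falls under transcription as well as the synapse, and Actl6b under the cytoskeleton. The examples were taken from the called genes after their values were seen. Over all 463 genes the long row was higher in 18.4% and lower in 4.97%, and no group was tested against these shares. Of 27 genes of transcription and chromatin, 4 had the long row higher and 3 lower (median 0.40), among them Kdm5b, a histone demethylase, at 1.29. Of 20 channel, receptor and transporter genes, 5 had the long row higher and 1 lower (median 0.68), with the glutamate receptor genes Gria3 at 1.78 and Grm7 at 2.43, and Kcnmb4, a subunit of BK potassium channels, at -3.11. That pattern also took in Trps1, which is a transcription factor (1.85). Of 12 cytoskeletal and small GTPase genes, 4 had the long row higher (median 0.76), among them Ctnnb1, the gene of β-catenin, at 3.25 and the motor protein gene Myo5a at 2.19. Of 20 synaptic, vesicle and membrane traffic genes, 3 had the long row higher (median 0.45): the kinesin gene Kif1b at 2.00, the GTPase gene Rab11b at 1.69 and Secisbp2l at 3.48, which is no traffic gene and entered by its symbol. Of 16 kinase and phosphatase genes, 3 had the long row higher and 1 lower (median 0.77), with Csnk1a1, a casein kinase, at 2.01 and Mark2, a kinase of microtubule-associated proteins, at -3.47. Of 14 RNA-binding genes 1 had the long row higher and 1 lower (median 0.35): Cnot4 at 1.78, and Qk, the gene of quaking, at -2.44. Of 14 ubiquitin genes 2 had the long row lower (median 0.30), Trim9 at -2.14 and Rnf8 at -1.67. None of 5 metabolic and mitochondrial genes was called (median 0.16, 1 of 5 at an unadjusted p below 0.05). The median over all 463 genes was 0.39. Of the examples, Cnot4, Csnk1a1, Gria3, Grm7, Kcnmb4, Kdm5b, Myo5a, Rab11b, Rnf8 and Trps1 lost the call without miR292sp replicate 5 (edgeR, adjusted p from 0.0543 to 0.286). Of 38 cleavage and polyadenylation factors, 26 had a row past the limit and 3 had several, Papola, Rbbp6 and Srsf3, with differences of 0.51, 0.22 and 0.32, none of them called.

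The sponges for miR-124 and miR-125 were each set against miR292sp. These comparisons share the miR292sp libraries with the one against sham, with the opposite sign, so that they are given side by side and not related to it. Of the 976 rows, 72 were higher with miR124sp than with miR292sp and 20 lower (edgeR with TMM scaling, background 5.1% and 3.46% of the 8203 rows), and 17 were higher and 2 lower with miR125sp (background 1.18% and 0.232%). With the Gapdh-centred scaling the splits were 4 higher and 361 lower with miR124sp, and 5 higher and 277 lower with miR125sp. Over all 8203 rows they were 17 higher and 4105 lower with miR124sp, and 18 higher and 3132 lower with miR125sp. The median log2 fold change of all rows was 0.04 and 0.03 with TMM, and -0.97 and -0.75 with the Gapdh-centred scaling. The median log2 fold change of the 976 rows with TMM was 0.32 with miR124sp, against 0.01 in the other rows, and 0.21 with miR125sp, against 0.00. Leaving out any 1 library of the groups compared gave 6 to 48 calls in place of 92 with miR124sp (6 without miR292sp replicate 5) and 1 to 7 in place of 19 with miR125sp (1 without miR292sp replicate 5).

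Within genes, where scaling has no part, no long minus short difference was called between miR124sp and miR292sp in 463 genes (edgeR), with 91 at an unadjusted p below 0.05. DESeq2 with the paired design gave 26 calls. The gene-level test of diffSpliceDGE takes all measured rows of a gene together, rather than the longest and shortest alone, and gave 31. Between miR125sp and miR292sp 1 was called (0.216%), with 66 at an unadjusted p below 0.05, 13 calls by DESeq2 and 12 by diffSpliceDGE. The medians were -0.16 and -0.22, and the ratios of the groups did not overlap in 50.5% and 49.7% of the genes.

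The call was Pcgf3. Its short row had 90 and 295 counts with miR125sp, against 11 and 21 with miR292sp, and its long row 1652 and 1353, against 3441 and 2719. The long minus short difference was -4.41 ± 0.66 with miR125sp (SE; edgeR, adjusted p = 0.0267) and -3.29 ± 0.67 with miR124sp (adjusted p = 0.0643). The short row alone was higher with miR125sp by 4.08 on the log2 scale (edgeR with TMM, adjusted p = 0.00125 over 8203 rows) and with miR124sp by 2.68 (adjusted p = 0.00802). The within-gene call with miR125sp had adjusted p of 0.0867 without miR125sp replicate 2, 0.181 without miR292sp replicate 5 and 0.106 without miR292sp replicate 6. The miR292sp counts of that row, 11 and 21, are close to the limit of 10.

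Genes were next divided by which row holds a seed match of the sponged miRNA. In the 60 genes with a miR-124 match in the long row alone, the median difference with miR124sp was -0.08, against -0.04 in 24 genes with it in the short row alone and -0.17 in 355 with it in neither. In the 64 genes with a miR-125 match in the long row alone, the median with miR125sp was -0.14, against -0.10 in 10 with it in the short row alone and -0.25 in 364 with it in neither. Among the genes whose matches are printed above, Lrrc58, a leucine-rich repeat protein, had ratios of 29.9 and 19.6 with miR124sp, against 33.7 and 22.9 with miR292sp (difference -0.20 ± 0.43). Kcnc1, a voltage-gated potassium channel of fast-spiking neurons, had ratios of 7.22 and 5.08, against 7.23 and 4.78 (0.04 ± 0.37), and Negr1, a neuronal adhesion molecule, 83.3 and 23.5, against 47.9 and 28 (0.25 ± 0.55). Neither group lay apart from the other in any of the 3. With miR125sp, the difference was -0.02 ± 0.30 in Slc1a2, -0.37 ± 0.33 in Pclo, a scaffold protein of the presynaptic active zone, and 0.27 ± 0.29 in Epha7, an ephrin receptor. None of the 6 passed the test (edgeR, adjusted p from 0.623 to 0.969).

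Among the genes named above, single rows were called in both directions. The last row of Homer1 had 698 and 681 counts with miR124sp and 635 and 635 with miR125sp, against 1778 and 1742 with miR292sp. It was lower with both sponges (log2 fold change -0.73 and -0.94, edgeR with TMM, adjusted p = 0.0357 and 0.0262). It was 1 of the 2 rows called lower with miR125sp, the other being the row of 821 bases of Gpam, an enzyme of glycerolipid synthesis (-0.92, adjusted p = 0.0486), which was named after its value was seen and lost the call without any 1 library of these groups (adjusted p from 0.204 to 0.435). Homer1, Mbp, Peg3 and Iscu were named through high ratios to sham in the same miR292sp libraries, and Ep300 and Pcgf3 through low ratios as well. That choice favours a fall of the high rows and a rise of the low rows with either sponge. With miR124sp the rows of Mbp (3935 bases, -0.85), Peg3 (3614 bases, -0.67), Iscu (370 bases, -1.04) and Epha7 (3496 bases, -0.64) were lower (edgeR with TMM, adjusted p from 0.0172 to 0.0265). These 4 rows and that of Homer1 lost the call with miR124sp when either miR292sp library was left out (adjusted p from 0.102 to 0.225), and so did the Homer1 row with miR125sp (0.257 and 0.315).

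The long row of Negr1, which holds a miR-124 match, had 4248 and 2627 counts with miR124sp, against 2493 and 2517 with miR292sp. It was higher by 1.06 with miR124sp (edgeR with TMM, adjusted p = 0.00246), with a value of 0.04 in the Gapdh-centred scaling and an adjusted p of 0.0530 without miR292sp replicate 5. The upstream row of Ep300 (2.37) and the coding row of Actb (0.99) were also higher with miR124sp (adjusted p = 0.0195 and 0.0122), and neither was called with the Gapdh-centred scaling or without either miR292sp library (adjusted p from 0.117 to 0.179). The long row of Slc1a2 (chr2:102621692-102630941, 9250 bases) had 151978 and 121658 counts with miR124sp, 109690 and 125004 with miR125sp, 71322 and 74312 with miR292sp, and 175666 and 144443 in sham. It was higher than with miR292sp by 1.53 with miR124sp and 1.22 with miR125sp on the log2 scale (edgeR with TMM, adjusted p = 6.44e-08 and 2.16e-06), and it was called under all alternatives tried. With the Gapdh-centred scaling these differences were 0.52 and 0.44. Its row of 35 bases had 49 and 55 counts with miR124sp, 55 and 42 with miR125sp, 32 and 27 with miR292sp, against 75 and 86 in sham. The astrocyte markers, nearly all of whose counts are Slc1a2, had the same order of groups. The middle row of Ntrk2 was higher by 1.16 with miR124sp and 1.05 with miR125sp (edgeR with TMM, adjusted p = 0.000351 and 0.00209), while the last row was at -0.40 and -0.37 (adjusted p = 0.24 and 0.38). In Pclo, all 3 rows were higher with miR124sp (0.89 to 1.08, edgeR with TMM, adjusted p from 0.00641 to 0.0401), and the coding rows of 2182 and 3066 bases also with miR125sp (1.00 and 1.04). The Ntrk2 and Pclo differences shrink with the Gapdh-centred scaling to between -0.12 and 0.27, and none of them is then called. Without miR292sp replicate 5 the Pclo rows also lost the call with both sponges (adjusted p from 0.113 to 0.360), as did the Ntrk2 row with miR125sp (0.0976). The part of astrocyte RNA in these results was not tested.

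In hippocampal mRNA, which does not enter the choice of rows, 404 of the 463 genes could be tested in the miR-124 experiment, on counts summed over all transcripts of a gene. With miR124sp 75 were higher and 39 lower than with GFP (edgeR, adjusted over 12971 genes), against a background of 12.6% higher and 10.7% lower. In place of these 114 calls there were 31 without GFP replicate 15, 37 without miR124sp replicate 2 and 51 without miR124sp replicate 14. The median log2 fold change was 0.04, against -0.01 in all genes tested. Peg3 had 328, 290 and 258 CPM (counts scaled to library size) with miR124sp, against 203, 183 and 209 with GFP, a log2 fold change of 0.60 ± 0.10 (SE; edgeR, adjusted p = 0.00492). Ntrk2 had 401, 402 and 417 CPM with miR124sp, against 565, 634 and 528 with GFP, and fell by 0.46 on the log2 scale (edgeR, adjusted p = 0.00729). Both groups lay apart in either gene, and neither call was lost under any alternative tried. Kcnc1 had 223, 203 and 190 CPM with miR124sp, against 141, 152 and 167 with GFP (0.46 ± 0.09, adjusted p = 0.00884). Ep300 (0.39), Pclo (0.38), Ncam1 (0.37) and Dicer1 (0.27) were also higher (edgeR, adjusted p from 0.00911 to 0.0264). Each of these 5 lost the call when GFP replicate 15 was left out (adjusted p from 0.0510 to 0.132). Of 402 genes tested in the miR-125 experiment, 1 was higher, Nsg2 at 0.69, and 1 lower, Ylpm1 at -0.26 (edgeR, adjusted p = 0.0329 and 0.0422; background 0.0554% and 0.15% of 12638 genes), named after their values were seen, and each lost the call without any of 5 of the 6 mice. Of the 463 genes, 458 have mRNA counts, and 258 of these have a single transcript in those tables. For the others, the sources do not say how a read shared by several transcripts was assigned, and their levels are uncertain. Among these others are Ntrk2, Ncam1 and Nsg2, with 3 transcripts each, and Kcnc1 and Pclo, with 2 each.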

How the data were processed

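The authors mapped 50-base single-end reads to the mouse genome and deposited raw counts, per annotated 3′UTR for the RIP-seq and per RefSeq transcript for the mRNA-seq. Their methods name mm9, while the submitters' processing notes name mm10, STAR and edgeR. No source used here names the counting program. Of 38158 rows, 31574 had the length of a single annotated 3′UTR block in GENCODE M1 (mm9), and 37402 had a gene there. The deposited length column (unit of bases) was used to match rows to blocks and to order the rows of a gene.

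Rows with 10 or more counts in each of the 8 RIP libraries were fitted together with edgeR 4.0.16 (quasi-likelihood). The comparison with sham used the study's scaling, in which the 101 rows centred on Gapdh, when rows are ranked by their raw ratio of miR292sp to sham, have the same mean in every library, and those between sponges TMM. For the within-gene test, each gene had 16 columns (8 libraries by longest and shortest row), a term per library and a long-row term per group, with no pseudocount. Standard errors come from the fitted weights. mRNA counts were summed per symbol and fitted per experiment after filterByExpr with TMM. The adjusted p threshold was 0.05. Row totals of 2417942 to 5072501 counts, and mRNA totals of 6950522 to 27833176, set the precision, and with short-row medians of 52 to 64 counts a library small within-gene differences were not detectable. Steps were tested on simulated data. Further software was R 4.3.3 with DESeq2 1.42.0, and Python 3.11.15 with pandas 2.3.3, numpy 2.4.6 and matplotlib 3.10.9.

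The regions, gene lists, tests and alternatives were chosen with earlier results of these data known. The alternatives on coding content and countable length (no coding base in either row, and 100 or more countable bases in both) were added after the data were seen. Genes named are, in each within-gene comparison, the 10 called genes with the widest difference and the same sign in every pair of libraries, the 10 genes with the widest ratio across the 4-fold limit, the 5 genes with the most rows (ties by symbol), the textbook genes, up to 6 genes with a match in 1 row alone, and the genes nearest the limit on counts. Alternatives were other scalings, DESeq2, diffSpliceDGE, other filters and pairings, and leaving out each library.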

Additional observations from a re-analysis of the deposited data

How the results depend on the processing

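Counts are given as calls over the 976 rows or 463 genes, unless the setting changes the genes tested. Within genes, filterByExpr tested more than these 463 genes. The limits on counts, coding content and countable bases tested fewer. For rows with miR124sp against miR292sp (92 calls), the Gapdh-centred scaling gave 365 and filterByExpr 46. For miR125sp (19 calls), they were 282 and 8, with 52 by DESeq2 and 31 without a filter. Over all 8203 rows the Gapdh-centred scaling gave 17 higher and 4105 lower with miR124sp, and 18 and 3132 with miR125sp. For the within-gene difference between miR292sp and sham (108 calls), the 139 genes with no coding base in either row gave 46, fewer genes being tested. With filterByExpr there were 74, more genes being tested, and with DESeq2 127. The gene-level test of diffSpliceDGE, which takes all measured rows of a gene together, gave 141. For miR124sp against miR292sp (0 calls), 100 countable bases gave 4, a limit of 20 counts 11, DESeq2 26, diffSpliceDGE 31 and rows with no coding base 9. For miR125sp (1 call), a limit of 20 counts gave 3, DESeq2 13, diffSpliceDGE 12, filterByExpr 0 and rows with no coding base 2. For mRNA with miR125sp (2 calls), DESeq2 gave 10 and no filter 12. Leaving out 1 library at a time gave 364 to 432 calls for rows against sham, 6 to 48 for miR124sp rows, 1 to 7 for miR125sp rows, 35 to 83, 0 to 0 and 0 to 1 for the 3 within-gene comparisons, and 31 to 139 and 0 to 6 genes in the mRNA comparisons. A lone library is then assumed to vary like the other groups. The causes of these shifts were not tested, and the number of genes tested differed under some alternatives. With the Gapdh-centred scaling, the coding row of Actb with miR124sp turned to -0.0035 and the last row of Pclo to -0.12. No other named value changed sign under the alternatives tried. No paired analysis was possible because the groups compared share fewer than 2 replicate numbers in the labels. The labels do not tie RIP libraries to animals, and the methods describe them as biological replicates of pooled tissue.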
